A study of Mus musculus with 12 samples.

Results

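Nonproductive contigs are T cell receptor transcripts that were assembled in a cell but not called productive. They were taken here as every alpha (TRA) or beta (TRB) contig that the deposited contig lists do not call productive. This is a call on the assembled contig, which can be incomplete, and does not show that the transcript cannot encode a chain. There were 5654 of them among 19393 alpha and beta contigs, 1979 alpha and 3675 beta, against 6482 and 7257 productive contigs. They lay in 3965 of 7056 listed cells. Sorted CD45+ leukocytes of C57BL/6 mice gave 6 receptor libraries: 2 from the brain parenchyma of NonTg mice, 2 from the parenchyma of 5xFADTg mice, and 1 from the meninges of each genotype. The 5xFADTg mice carry the 5xFAD transgenes, a model of amyloid deposition in the brain, and NonTg mice do not carry them. The labels give no age or sex and do not say how many animals each library holds, so p-values measure only the spread between these libraries, which may be technical. The matching transcriptome samples were not analysed here, and the cells were identified as T cells by their receptor contigs alone.

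A T cell builds its receptor genes by joining V, D and J segments of the beta locus and V and J segments of the alpha locus. Joining is imprecise, so many junctions lose the reading frame, and a cell whose first allele fails can still make a chain from the second. The failed allele is often still transcribed. Because it encodes no receptor, selection in the thymus and expansion in the tissue act on its cell through the productive chains. At the beta locus D joins J before V joins D-J, and the locus holds 2 clusters of segments, TRBJ1 followed by TRBJ2. An upstream V joining to a TRBJ1 segment leaves the TRBJ2 cluster on that allele, whereas an upstream V joining to TRBJ2 deletes TRBJ1. This does not cover TRBV31, which lies downstream and joins by inversion.

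The junctions below are examples, chosen after their values were seen, of those that recurred across the cells of large clones and had a CDR3 in the deposited lists. The germline J segments are TRBJ2-1 and TRBJ1-2, which beta contigs without V used more than productive chains did, and TRAJ32, which was higher in nonproductive V-J rearrangements. Junctions run from the first to the last base of the CDR3 the lists give, 5′ to 3′, and capitals mark the end that is identical to the germline J segment. In the germline J segments, capitals mark the codons of the Phe-Gly-X-Gly motif that closes a productive CDR3. Germline sequences are those of GENCODE M21 on build mm10.
TRBV31–TRBJ1-3: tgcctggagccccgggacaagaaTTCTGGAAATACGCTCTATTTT
TRAV8N-2–TRAJ32: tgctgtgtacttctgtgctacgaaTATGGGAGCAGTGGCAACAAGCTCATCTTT
TRAV12-1–TRAJ56: tgtgctctgagtgagaGGCTACTGGAG
TRAV9N-4–TRAJ22: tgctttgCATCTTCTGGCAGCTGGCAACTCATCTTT
TRAV11–TRAJ38: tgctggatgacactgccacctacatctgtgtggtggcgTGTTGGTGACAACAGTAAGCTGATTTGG
Germline TRBJ2-1, chr6:41542754-41542803, forward strand: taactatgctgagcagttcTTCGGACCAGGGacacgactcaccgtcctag
Germline TRBJ1-2, chr6:41534001-41534048, forward strand: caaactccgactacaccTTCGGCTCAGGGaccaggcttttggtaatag
Germline TRAJ32, chr14:54186101-54186166, forward strand: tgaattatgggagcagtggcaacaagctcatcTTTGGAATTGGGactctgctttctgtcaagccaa

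Nonproductive contigs fell into classes by the segments they carried. Among alpha contigs, 1794 of 1979 (90.7%) had both V and J, 128 had J without V and 57 had V without J. Among beta contigs, only 1007 of 3675 (27.4%) had both, whereas 2644 (71.9%) had J without V and 24 had V without J. The 2644 beta contigs without V had a median length of 372 bases, against 525 for nonproductive and 560 for productive beta contigs with V and J. None of them had a D segment named, and none carried a constant gene of the other TRBJ cluster. Of the contigs with V and J, 1765 of 1794 alpha and 1004 of 1007 beta contigs were listed as full length.

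Depth was 15824562 to 26691602 reads and 49977 to 128252 unique molecular identifiers (UMIs, tags that count captured transcripts) per library, over 425 to 2122 cells. Of 7034 cell barcodes, 21 occurred in more than 1 library, and none of these had a nonproductive contig of the same V and J in both. No listed cell had nonproductive contigs alone. Intervals below are 95% exact binomial (Clopper-Pearson) and cover counting error only.

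A nonproductive alpha contig with V and J was present in 24.5% of cells (1728 cells). The share was 22.7% and 27.3% in the NonTg parenchyma libraries, 23.2% and 25.4% in the 5xFADTg parenchyma libraries, 28.7% in NonTg meninges and 20.2% in 5xFADTg meninges. The highest and the lowest value were thus the 2 meningeal libraries. For beta contigs with V and J the share was 13.8% (973 cells), with 11.1% and 12.9% in NonTg parenchyma, 12.4% and 17.3% in 5xFADTg parenchyma, 12.2% in NonTg meninges and 14.5% in 5xFADTg meninges. Beta contigs with J but no V were found in 31.2% of cells (2204 cells), at 28.5% and 27.5% in NonTg parenchyma, 33.2% and 33.1% in 5xFADTg parenchyma, 32.0% in NonTg meninges and 31.9% in 5xFADTg meninges. The NonTg parenchyma libraries were the 2 lowest. Most carriers had a single contig of a class: 1663 cells had 1 alpha V-J contig, 64 had 2 and 1 had 3, while 361 cells had 2 beta contigs without V and 38 had 3.

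**Figure D1:**
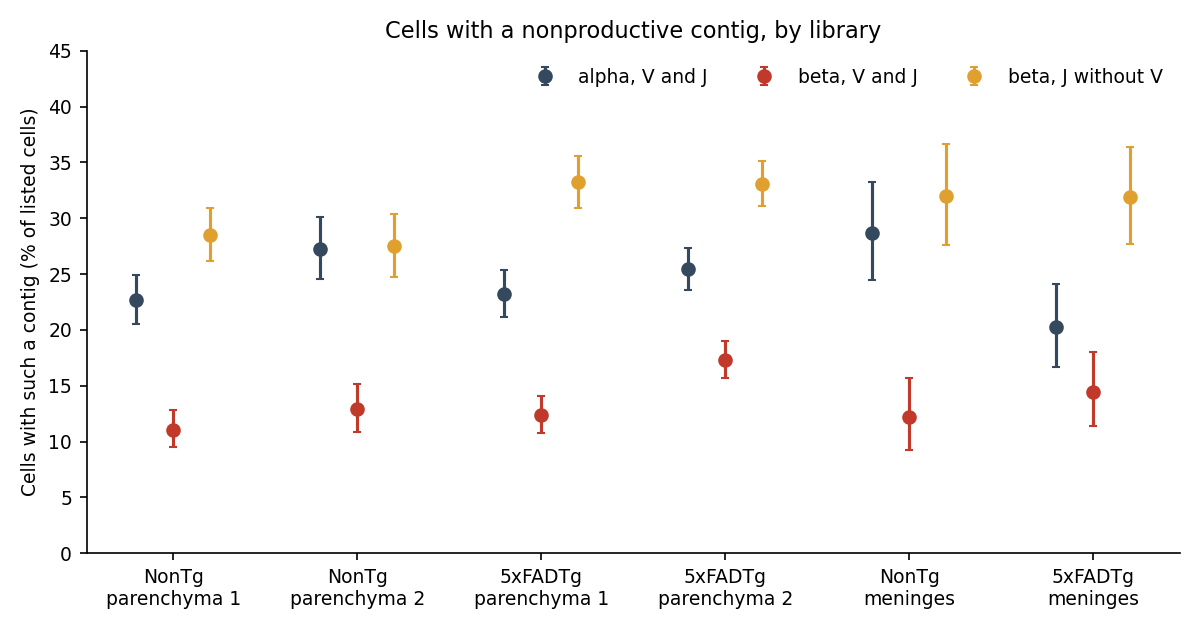
Percent of listed cells with a nonproductive contig of each class (y axis) in each library (x axis); points are single libraries and bars are 95% exact binomial intervals. Beta contigs without V have the highest point in each of the 6 libraries, between 27.5% and 33.2%, and beta contigs with V and J the lowest, between 11.1% and 17.3%.

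Carriage of V-J contigs varied with how many productive contigs of the same chain the cell had, but no contrast passed after adjustment. Nonproductive alpha V-J contigs were present in 387 of 1222 cells without a productive alpha (31.7%, interval 29.1 to 34.4), in 24.6% of cells with 1 and in 64 of 648 cells with 2 or more (9.88%, interval 7.69 to 12.4). For beta the shares were 40.4% of 230 cells without a productive beta, 12.9% of cells with 1 and 13.5% of cells with 2 or more. The step from 1 to 2 or more productive beta contigs was 1.19 percentage points over libraries, positive in 4 of 6 (exact sign-flip p = 0.719). Both alpha steps and the first beta step went the same way in 6 of 6 libraries. Over libraries they measured 8.40, -17.7 and 31.6 percentage points, and an exact sign-flip test gave p = 0.0312, the smallest that 6 libraries allow, with a Benjamini-Hochberg adjusted p of 0.0625 over 6 contrasts, which does not pass 0.05. Contigs without V did not follow this order: 36.1%, 30.8% and 35.0% of cells with 0, 1 and 2 or more productive beta contigs had them.

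Where a nonproductive and a productive contig of a chain lay in the same cell, they almost never used the same V segment. Of 1370 alpha V-J contigs, 1 had the V of the cell's productive alpha (0.0730%), against 1.67% of pairs drawn from different clonotypes. Of 903 beta V-J contigs, 4 did (0.443%), against 4.54%. The same J was not rare: 6.13% of alpha and 12.6% of beta V-J contigs had it, against 3.04% and 9.66% between clonotypes. Beta contigs without V were different again, with the J of the productive beta in 1 of 2543 (0.0393%), against 11.0% between clonotypes. No nonproductive contig had both the V and the J of a productive contig of its cell. Whether assembly merges contigs that share a segment was not tested.

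The junctions of V-J contigs were read from the CDR3 the lists give. A rearrangement was counted once per library, clonotype, V and J, which left 1335 alpha and 649 beta rearrangements. No CDR3 was given for 46.4% of alpha and 45.9% of beta rearrangements. In 29.2% of alpha and 31.7% of beta rearrangements the last 6 bases matched a productive CDR3 of the same J but the first 6 matched no productive CDR3 of the same V. The reverse, a start in place and an end out of place, held for 9.06% and 10.6%. Both ends matched in 13.3% and 10.3%. TRBV31–TRBJ1-3, TRAV8N-2–TRAJ32, TRAV9N-4–TRAJ22 and TRAV11–TRAJ38, printed above, belong to the kind with only the end in place: their capitals run to the Phe or Trp codon, while the start is not one that productive chains of these V segments use. TRAV12-1–TRAJ56 is of the reverse kind. None of the CDR3s given, 983 alpha and 570 beta contigs, held a stop codon. How the caller chose which CDR3 to list is not given in the sources used here. The absence of stops therefore does not describe the junctions themselves. TRAJ31, the alpha J with most nonproductive rearrangements (75), lacked a CDR3 in 61.

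V and J use of nonproductive rearrangements was compared with that of productive rearrangements of the same library, to see use that selection on the chain itself has not shaped. Of 160 segments tested, 24 (15%) differed at an adjusted p under 0.05 with edgeR's quasi-likelihood test (class totals as offsets, library as block), 10 higher (6.25%) and 14 lower (8.75%) in nonproductive rearrangements, with 37 (23.1%) at an unadjusted p under 0.05. DESeq2 called 6 higher and 1 lower. When each library was left out in turn, 10 of the 24 calls held in all 6 fits: TRBV23, TRBV31, TRBV15, TRBV13-3, TRBV12-2+TRBV13-2, TRAV9D-4, TRAV9D-2, TRAV13D-3, TRAV11 and TRAV16N. The other 14 missed the threshold in at least 1 of the 6, with their highest edgeR adjusted p between 0.0621 and 0.240. Without NonTg parenchyma 1, 5xFADTg parenchyma 1 or 5xFADTg parenchyma 2 the lower calls numbered 8, 6 and 7. TRBV23, TRBV31 and TRBV12-2+TRBV13-2 were called under every alternative run. In beta chains TRBV23, TRBV31, TRBV15, TRBV17 and TRBJ1-6 were higher. TRBV2, TRBV12-2, TRBV13-3, TRBV29 and the joint name TRBV12-2+TRBV13-2, which the lists give where the 2 neighbours are both named, were lower. Members of the TRBV13 family, also known as Vβ8, are among the most used beta segments of C57BL/6 mice and pair with the invariant alpha chain of NKT cells.

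TRBV31 lies downstream of the constant genes in the opposite orientation (chr6:41557691-41558452, reverse strand, build mm10) and joins D-J by inversion. It made up 9.23% and 3.45% of nonproductive beta rearrangements in NonTg parenchyma, 5.19% and 13.1% in 5xFADTg parenchyma, 10.2% in NonTg meninges and 17.0% in 5xFADTg meninges. Among productive rearrangements of the same libraries it stayed between 2.78% and 4.19%. Nonproductive shares exceeded productive ones in 5 of 6 libraries, with NonTg parenchyma 2 the exception. The means were 9.69% ± 4.98 against 3.30% ± 0.55 (SD, n = 6), a log2 fold change of 1.44 (SE 0.29, edgeR adjusted p = 2.37e-05). The 2 highest shares were those of the libraries with the TRBV31–TRBJ1-3 junction printed above, which was found in 120 cells. This junction can enter more than once where its cells have different clonotype identifiers. The TRBV31 call held when every V, J and CDR3 was counted once per library.

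TRBV23 (chr6:41216073-41216526) was the beta segment with the largest difference. It had 38 nonproductive and 18 productive rearrangements, at 4.62% and 3.45% of nonproductive rearrangements in NonTg parenchyma, 6.49% and 10.2% in 5xFADTg parenchyma, 2.04% in NonTg meninges and none of 53 in 5xFADTg meninges. Productive shares were 0.20% to 0.69%. All 4 parenchymal libraries and NonTg meninges lay above every productive value, and the log2 fold change was 3.78 (SE 0.44, edgeR adjusted p = 9.18e-15). TRBV15 and TRBV17 had smaller rises, 1.45 and 1.10 on the log2 scale. TRBV17 was higher in 6 of 6 libraries, but its call was lost without NonTg parenchyma 2 or 5xFADTg parenchyma 1 (edgeR adjusted p up to 0.0631). TRBV15 was absent from the nonproductive rearrangements of NonTg meninges.

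TRBV10 was left out of the test because the annotation lists it as a pseudogene, although the lists hold 205 productive rearrangements with it. With 70 it was the most used TRBV among nonproductive rearrangements. Its share was 7.55% to 14.3% over libraries, against 2.54% to 6.35% among productive ones, and the 2 ranges did not overlap. When it was kept in the test its log2 fold change was 1.31 (SE 0.27, edgeR adjusted p = 2.55e-05).

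The joint name TRBV12-2+TRBV13-2 was lower in 6 of 6 libraries. It took 11.1% ± 1.60 of productive and 3.68% ± 3.74 of nonproductive rearrangements (SD, n = 6), with none of the 130 of NonTg parenchyma 1 or the 176 of 5xFADTg parenchyma 2. The log2 fold change was -2.15 (SE 0.36, edgeR adjusted p = 2.39e-07). TRBV13-3 fell by 1.25, TRBV2 by 1.95, TRBV12-2 by 1.07 and TRBV29 by 0.97 on the log2 scale. The TRBV12-2 and TRBV29 calls were lost without any library other than 5xFADTg meninges (edgeR adjusted p up to 0.194 and 0.222), and that of TRBV2 without NonTg parenchyma 1 or 5xFADTg parenchyma 2 (edgeR adjusted p up to 0.0910). TRBV2 was at -3.68 without 5xFADTg parenchyma 1. TRBV13-2 and TRBV12-2 also occur as single names, so a change in how reads were split between names would move all 3 rows, and this was not tested. The 5 TRBV segments typical of NKT cells (TRBV13-1, TRBV13-2, TRBV13-3, TRBV29 and TRBV1) had 2 of 5 lower, beside 14 of all 160 segments (8.75%). Their median log2 fold change was -0.09, beside -0.03 over all 160 segments. The list was not tested as a set. TRBV1 and TRBV19, the other 2 of the 5 most used nonproductive TRBV segments, had log2 fold changes of 0.42 and -0.23, which did not pass (edgeR adjusted p 0.404 and 0.640).

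**Figure D2:**
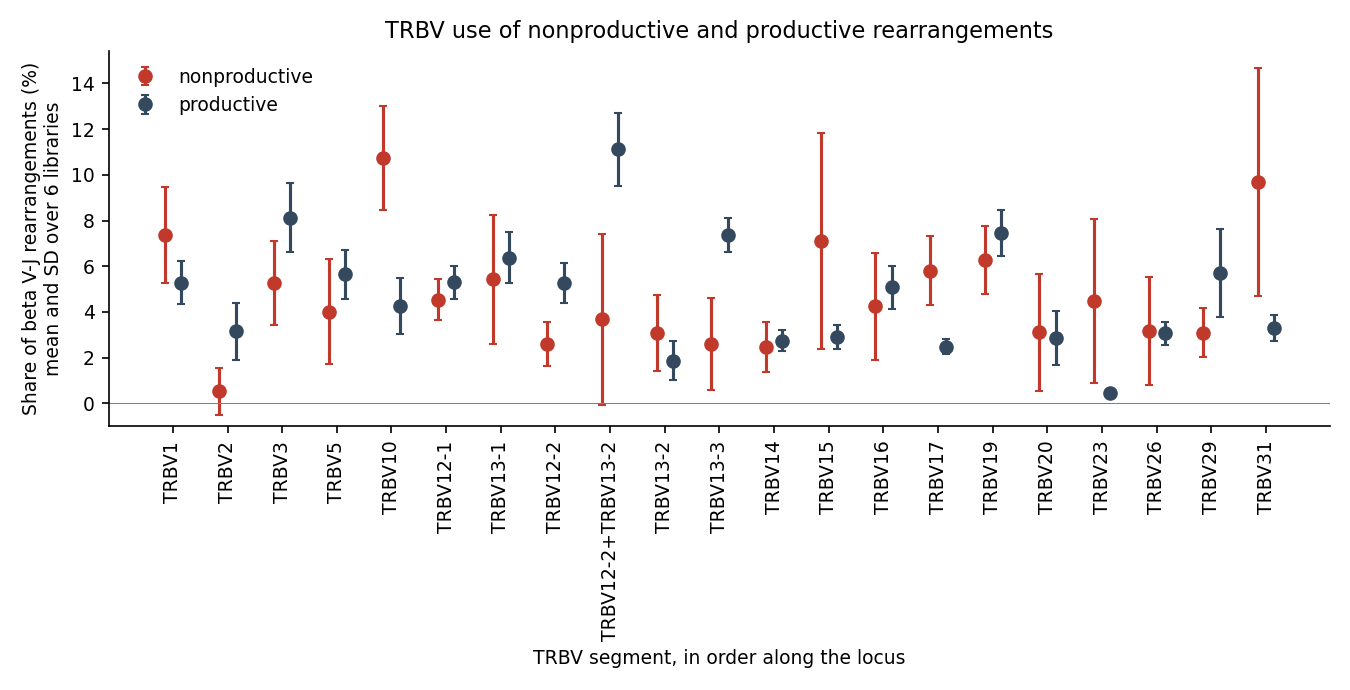
Share of each TRBV segment among nonproductive (red) and productive (dark) beta V-J rearrangements, as mean and SD over 6 libraries (y axis, percent), for segments with at least 20 rearrangements in order along the locus (x axis). TRBV10, TRBV15, TRBV17, TRBV23 and TRBV31 have higher nonproductive means, and TRBV12-2+TRBV13-2 and TRBV13-3 have lower ones.

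The alpha locus of the mouse holds near-identical copies of many TRAV segments, named with D or N, so a call for a single copy is uncertain. TRAV9D-4 had 27 nonproductive and 1 productive rearrangements, TRAV13D-3 had 17 and 1, TRAV9D-2 had 18 and 5, and TRAV15-2-DV6-2 had 11 and 6. Their log2 fold changes were 5.29, 4.65, 3.20 and 2.35. When D and N copies were summed, TRAV9-4 and TRAV9-2 were still higher, by 0.81 and 0.97 on the log2 scale (edgeR adjusted p 0.0273 each). Summed TRAV9-1 and TRAV9-3 were at -0.51 and -0.40 and did not pass (edgeR adjusted p 0.441 and 0.592). With copies summed, 10 of 126 segments were called higher and 10 lower. No summed value is given here for TRAV13D-3 or for the lower segments named next. The lower TRAV segments were TRAV8D-2, TRAV14-2, TRAV14-3, TRAV14D-1, TRAV16, TRAV16N and TRAV11, with log2 fold changes from -2.42 to -1.09. TRAV8D-2, with 2 nonproductive rearrangements, was at -5.30 without NonTg parenchyma 2, and its call was lost without NonTg parenchyma 1 or either 5xFADTg parenchyma library (edgeR adjusted p up to 0.240). TRAV6D-7, with 9 nonproductive rearrangements, and TRAV23, with 2, had no productive rearrangement and were chosen after their values were seen.

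TRAV11 and TRAJ18, which join in the invariant alpha chain of NKT cells, were both lower, TRAV11 with a log2 fold change of -1.09 (edgeR adjusted p = 0.00820) and TRAJ18 with one of -0.95 (edgeR adjusted p = 0.0106), a call that was lost without either 5xFADTg parenchyma library (edgeR adjusted p up to 0.104). Productive shares were 5.38% ± 2.88 and 6.52% ± 2.81, nonproductive shares 2.12% ± 1.09 and 3.10% ± 1.04 (SD, n = 6). When every V, J and nucleotide CDR3 was counted once per library, the differences were 0.63 and 0.30 with the opposite sign and did not pass (edgeR adjusted p 0.325 and 0.593). In that count nucleotide variants of the invariant chain stayed separate. Nonproductive contigs without a CDR3 counted once per V and J of a library, so the 2 sides were not reduced alike. TRAV1 and TRAJ33, which join in the alpha chain of MAIT cells, did not pass (0 of 2, beside 15% of all 160 segments). Among the 22 upstream TRAJ segments, TRAJ61 to TRAJ31, only TRAJ32 was higher (log2 fold change 0.86, SE 0.27, edgeR adjusted p = 0.0161). Its nonproductive share, 4.14% to 8.18%, lay above the productive share in each of 6 libraries, and its call was lost without NonTg parenchyma 2 or NonTg meninges (edgeR adjusted p up to 0.206). Of the 21 downstream segments tested, TRAJ7 and TRAJ18 were lower. Over all 160 segments 6.25% were higher and 8.75% lower, and neither TRAJ list was tested as a set of calls. TRAJ25, with 10 nonproductive and no productive rearrangement, was left out of the test because it had no productive rearrangement. When it was kept with TRBV10, 12 of 162 segments were higher, TRAJ25 among them (edgeR adjusted p = 4.36e-05). Upstream TRAJ segments made up 49.5% ± 2.66 of nonproductive and 45.5% ± 3.23 of productive rearrangements, a difference that did not pass (exact sign-flip p = 0.0938, adjusted p = 0.141). TRAJ31, TRAJ32 and TRAJ22 were the most used nonproductive TRAJ segments, and TRAV6-6, TRAV3D-3, TRAV12D-2, TRAV6N-7 and TRAV13-1 the most used TRAV segments. Of these only TRAJ32 passed.

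TRBJ use of nonproductive V-J rearrangements differed little. TRBJ1-6 was higher, at 6.52% ± 2.64 against 3.06% ± 0.24 of productive rearrangements (SD, n = 6; log2 fold change 0.94, SE 0.33, edgeR adjusted p = 0.0326), in 6 of 6 libraries. This call was lost without NonTg parenchyma 2, 5xFADTg parenchyma 2 or either meningeal library (edgeR adjusted p up to 0.171). The other 11 TRBJ segments did not pass, among them TRBJ2-7, TRBJ2-5 and TRBJ2-1, the most used. The TRBJ2 cluster took 64.4% ± 7.19 of nonproductive and 65.3% ± 1.29 of productive rearrangements. A D segment was named in only 10 of 1007 nonproductive V-J contigs (8 TRBD1, 2 TRBD2) and 312 of 7257 productive ones (248 TRBD1, 64 TRBD2). The named share of rearrangements was 1.82% against 3.01%, lower in 6 of 6 libraries (exact sign-flip p = 0.0312, adjusted p = 0.0562 over 9 measures). D use can hardly be described from so few, and both TRBD2 contigs had a TRBJ2 segment.

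Beta contigs without V had a J use of their own. TRBJ2-1 made up 28.9% and 31.5% of them in NonTg parenchyma, 31.03% and 27.5% in 5xFADTg parenchyma, 28.0% in NonTg meninges and 30.95% in 5xFADTg meninges. Productive TRBJ2-1 shares ranged from 8.33% to 15.9% and did not overlap with these. The means were 29.6% ± 1.72 and 11.5% ± 2.54 (SD, n = 6). Of 12 TRBJ segments, 8 (66.7%) differed from productive use in the same direction in 6 of 6 libraries and passed an exact sign-flip test after adjustment (p = 0.0312, adjusted p = 0.0469 each). TRBJ2-1 and TRBJ1-2 (9.83% against 6.55%) were higher. TRBJ1-1, TRBJ1-4, TRBJ1-5, TRBJ2-2, TRBJ2-4 and TRBJ2-5 were lower, TRBJ1-1 at 4.02% against 11.1% and TRBJ2-4 at 3.46% against 9.12%. Nonproductive V-J rearrangements did not share this: TRBJ2-1 took 11.1% and TRBJ1-2 4.53% of them. When every contig of every cell was counted, the adjusted p of 7 of these segments was 0.0536 and that of TRBJ1-4 was 0.0938, with the same signs. The contigs also differed in length by J, from a median of 331 bases with TRBJ2-2 and 356 with TRBJ2-1 to 631.5 with TRBJ2-5.

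**Figure D3:**
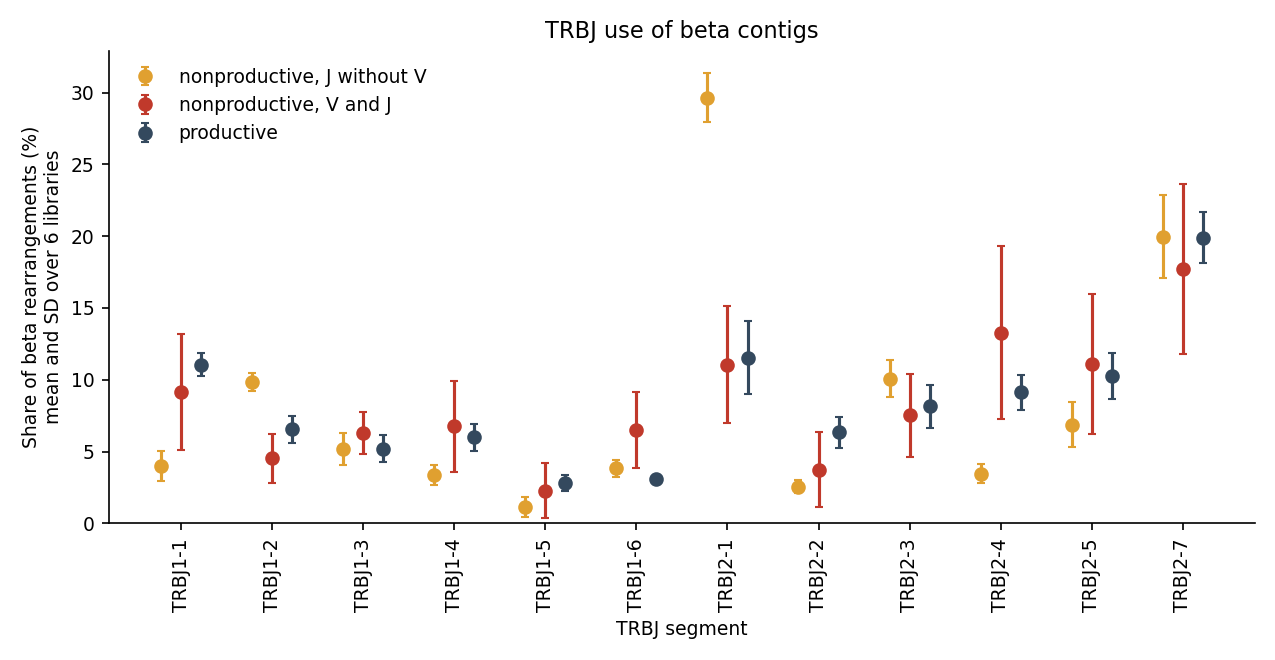
Share of each TRBJ segment (x axis) among beta contigs with J but no V, nonproductive V-J rearrangements and productive rearrangements, as mean and SD over 6 libraries (y axis, percent). TRBJ2-1 stands at 29.6% among contigs without V and near 11% in both other classes.

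Which contigs without V a cell had went with the J cluster of its other beta contigs. Among cells with exactly 1 productive beta, a TRBJ2 contig without V was found in 945 of 2348 cells whose productive beta used TRBJ1 (40.2%, interval 38.3 to 42.3) and in 641 of 4047 cells whose productive beta used TRBJ2 (15.8%, interval 14.7 to 17.0). The difference was 24.5 percentage points over libraries, positive in 6 of 6 (exact sign-flip p = 0.0312, adjusted p = 0.0469 over 6 contrasts). TRBJ1 contigs without V were also more frequent with a productive TRBJ1, by less. Over libraries they were found in 11.0% ± 1.27 of cells, against 7.84% ± 1.47 with a productive TRBJ2 (SD, n = 6). This difference of 3.16 points was positive in 6 of 6 libraries (exact sign-flip p = 0.0312, adjusted p = 0.0469). A TRBJ1 contig without V was found in only 12 of 822 cells that also had a nonproductive V-J beta contig. Over libraries this was 1.81% ± 1.95, against 9.92% ± 0.93 of the cells with no such contig (SD, n = 6; exact sign-flip adjusted p = 0.0469). TRBJ2 contigs without V showed no such gap, at 23.9% ± 5.65 against 24.9% ± 2.49 (exact sign-flip adjusted p = 0.844).

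The productive J cluster and the nonproductive V-J contig can be read together in cells with 1 productive and at most 1 nonproductive V-J beta contig. Where both used TRBJ2, a contig without V had TRBJ1 in 1 of 313 cells (0.319%) and TRBJ2 in 23 (7.35%, interval 4.71 to 10.8). Where the productive contig used TRBJ2 and the nonproductive TRBJ1, TRBJ2 contigs without V were found in 94 of 266 cells (35.3%, interval 29.6 to 41.4). With both on TRBJ1 they were found in 37 of 78 cells (47.4%, interval 36.0 to 59.1). Among cells with no nonproductive V-J beta, TRBJ1 contigs without V reached 11.4% with a productive TRBJ1 and 9.21% with a productive TRBJ2. These shares pool libraries, of which some hold as few as 4 cells of a class, and were not tested. Cells of 1 clone enter separately, here and in the preceding paragraph, so the intervals do not cover the spread between clones. The clone with productive TRBV1–TRBJ2-5, for example, had nonproductive TRBV31–TRBJ1-3 in 70 of 85 cells of 5xFADTg parenchyma 2. The 35.3% ran from 9.09% to 64.7% over libraries.

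At the alpha locus the J segments of a productive and a nonproductive rearrangement lay closer together within a cell than between clonotypes. Over 863 pairs of a productive and a nonproductive alpha rearrangement, the TRAJ numbers correlated with a Pearson r of 0.646 and a Spearman rho of 0.631, and r was 0.578 to 0.686 within single libraries. The median distance was 7 positions within a cell and 13 between clonotypes of a library, and 67.8% against 40.6% of pairs lay within 10 positions. The pairs share libraries and the uneven use of TRAJ segments, so no p is given.

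UMI counts set the 2 chains apart. Nonproductive alpha V-J contigs had a median of 55 UMIs, against 39 for productive alpha contigs, and were higher in 6 of 6 libraries (0.62 on the log2 scale over library medians). Nonproductive beta contigs had 3 UMIs with V and J and 4 without V, against 8 for productive beta. Those with V and J were lower in 6 of 6 libraries (-1.70 on the log2 scale). These medians are over single contigs, so large clones weigh by their cells. Both reached only the smallest p of the design (exact sign-flip p = 0.0312, adjusted p = 0.0562 over 9 measures). Read counts did not follow the alpha UMIs: median reads per nonproductive contig were lower than per productive contig in 6 of 6 libraries for both chains, by -0.91 (alpha) and -1.85 (beta) on the log2 scale, with the same p-values. A single UMI supported 10.5% of nonproductive alpha V-J, 24.0% of beta V-J and 12.7% of beta V-less contigs, against 2.93% and 1.69% of productive alpha and beta contigs.

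Within cells the contrast was sharper. In 1258 cells with 1 productive and 1 nonproductive alpha V-J contig, the nonproductive contig had a median of 57 UMIs and the productive contig 4, and the nonproductive contig was the higher in 1072 cells (85.2%, interval 83.1 to 87.1). The share was 81.8% to 87.9% over the 6 libraries, and the mean log2 ratio 4.06 ± 0.39 (SD, n = 6; exact sign-flip p = 0.0312). In 805 such cells for beta the order was the opposite: 2 against 7 UMIs, with the nonproductive contig higher in 123 cells (15.3%, interval 12.9 to 17.95). Uneven alpha counts were not limited to nonproductive contigs, since in 584 cells with 2 productive alpha contigs the higher had a median of 61 UMIs and the lower 4. A productive alpha contig without a second had 59, and a nonproductive alpha contig without a second 54.

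Clones allow the same productive alpha chain to be followed with and without its partner. A clone was the cells of a library with the same nucleotide CDR3 of the only productive beta and of the productive alpha with most UMIs. In 60 clones that had a repeated nonproductive alpha contig in at least 2 cells and lacked any in at least 2 others, the productive alpha had a median of 4 UMIs in the carriers and 57 in the others, and was lower in carriers in 59 of the 60 clones. The nonproductive contig had 43, and the summed alpha UMIs were 54.25 in carriers and 57 in the others. In 33 clones with a repeated nonproductive beta the productive beta had 6 UMIs in carriers and 8 in the others, lower in 22 clones and higher in 8. How UMIs were assigned between contigs of a cell is not given in the sources used here, and its part in these counts was not tested.

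**Figure D4:**
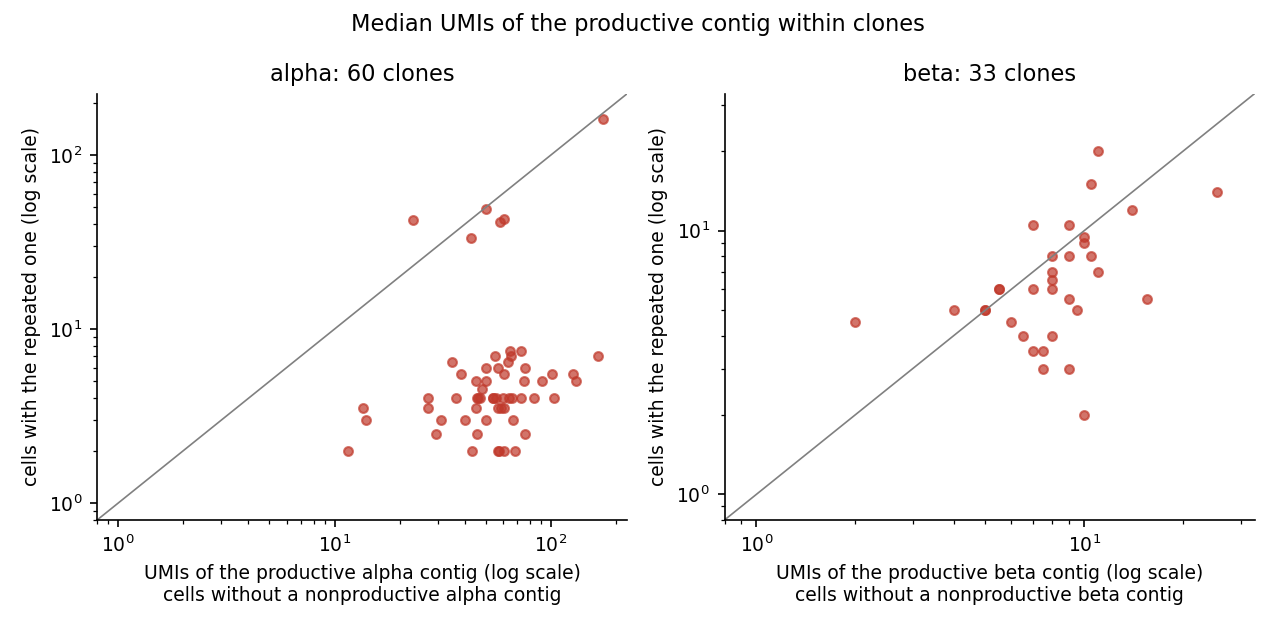
Median UMIs of the productive alpha (left, 60 clones) and productive beta contig (right, 33 clones) in cells of a clone without a nonproductive contig of that chain (x axis, log scale) and in cells with the repeated nonproductive contig (y axis, log scale); each point is a clone and the line marks equal counts. Most alpha points lie near 4 UMIs on the y axis whatever their place on the x axis, while beta points scatter about the line.

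Cells of the same clone carried the same nonproductive rearrangement. Among pairs of carrier cells of a clone, the alpha V and J were the same in 89.4% and 97.5% of pairs in NonTg parenchyma, 98.1% and 95.4% in 5xFADTg parenchyma, 83.3% in NonTg meninges and 50.0% in 5xFADTg meninges, where only 2 clones gave a pair. These are averages over clones. Pairs of carriers of different clones had the same V and J in 0% to 0.186%. For beta V-J contigs the shares were 90.5% to 100% within and at most 1.40% between clones, and for the J of contigs without V 59.1% to 79.3% within and 20.1% to 29.8% between. Within and between ranges did not overlap for any class, and the differences of 85.5, 95.9 and 43.3 percentage points passed an exact sign-flip test (adjusted p = 0.0312 each, the smallest possible with 6 libraries).

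**Figure D5:**
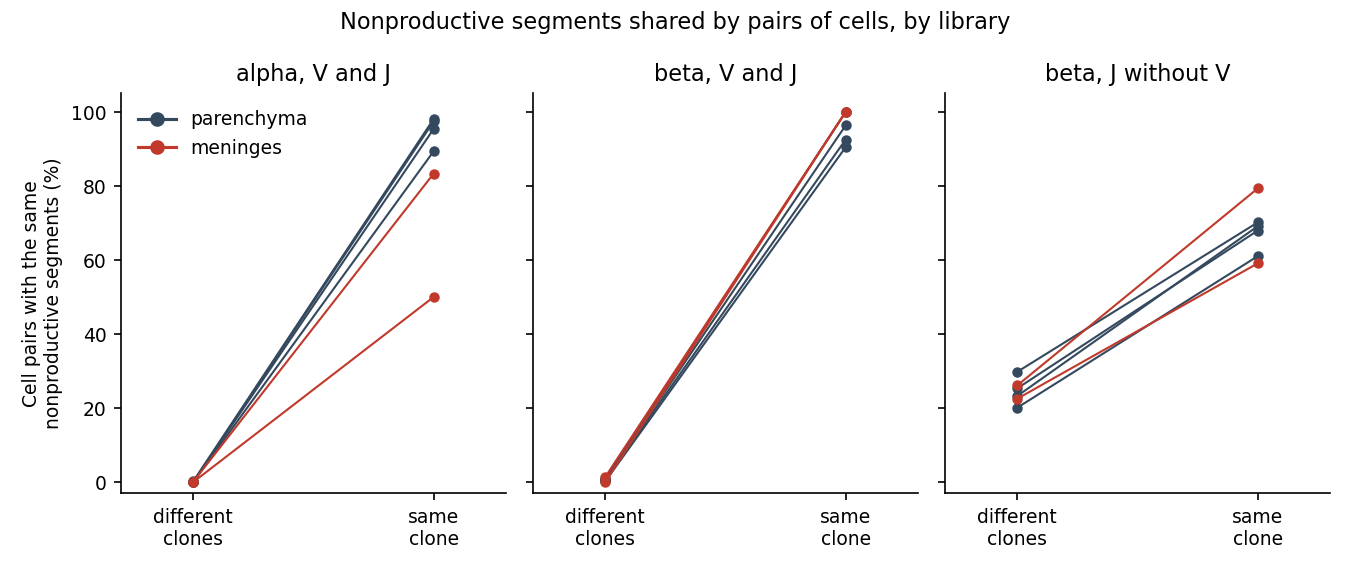
Percent of pairs of carrier cells with the same nonproductive segments (y axis) for pairs from different clones and from the same clone (x axis), for each class of contig; each line is a library, dark for parenchyma and red for meninges. All lines rise, those for V-J contigs from near 0% and those for contigs without V from 20.1% to 29.8%.

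The contig was seen in only some cells of its clone. Among 107 clones of at least 5 cells, a nonproductive V-J contig was repeated in 59 for alpha and 37 for beta, and a V-less TRBJ in 61. In these clones it was found in a median of 29.4%, 30% and 38.5% of the clone's cells, with ranges of 6.06% to 80.0%, 11.1% to 100% and 9.09% to 100%. Cells of expanded clones (2 or more cells) had a nonproductive alpha in 24.9% ± 6.45 and cells of single-cell clones in 21.6% ± 1.82 (SD, n = 6). For beta V-J contigs the shares were 17.0% ± 7.85 and 10.9% ± 1.37, and for contigs without V 34.0% ± 3.56 and 30.2% ± 2.04. None of the 3 differences passed (exact sign-flip adjusted p 0.25, 0.188 and 0.188).

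The most repeated junction belonged to a 5xFADTg clone whose productive chains were TRBV1–TRBJ2-5 and TRAV10D–TRAJ42. Its TRBV31–TRBJ1-3 contig was found in 70 of 85 cells of 5xFADTg parenchyma 2 (82.4%, interval 72.6 to 89.8), all 70 with the nucleotide junction printed above, and in 14 of 14 cells of the clone in 5xFADTg meninges. The same clone had TRAV12-1–TRAJ56 in 29 of 85 parenchymal and 4 of 14 meningeal cells, and V-less TRBJ2-1 in 38 and 9. Its repeated contigs thus covered all 3 classes in both tissues. In NonTg parenchyma 2 a clone with productive TRBV12-2+TRBV13-2–TRBJ2-7 and TRAV8N-2–TRAJ40 had TRAV13-1–TRAJ32 in 56 of 94 cells (59.6%, interval 49.0 to 69.6), TRBV15–TRBJ1-5 in 22 and V-less TRBJ2-1 in 34, and TRAV13-1–TRAJ32 again in 4 of 5 cells in NonTg meninges.

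Other large clones each had nonproductive contigs of their own, and are named here by their productive chains. In 5xFADTg parenchyma 2 the clone with TRBV12-2+TRBV13-2–TRBJ1-1 and TRAV12D-3–TRAJ21 had a nonproductive TRAV8N-2–TRAJ32 in 46 of 60 cells, with the printed junction in all 46, and TRBV10–TRBJ2-3 in 17. In the same library a clone with TRBV19–TRBJ2-7 and TRAV9-4–TRAJ56 had nonproductive TRBV15–TRBJ2-7 in 21 of 28 cells, and a clone with TRBV5–TRBJ1-1 and TRAV7-6–TRAJ57 had nonproductive TRAV19–TRAJ58 in 19 of 69. In NonTg parenchyma 1 nonproductive TRAV9N-4–TRAJ22 was found in 12 of 29 cells of a clone with TRBV1–TRBJ2-1 and TRAV13D-1–TRAJ22. In 5xFADTg parenchyma 1 V-less TRBJ2-1 was found in nearly every cell of a clone with TRBV29–TRBJ1-2 and TRAV12-2–TRAJ5, 33 of 36 (91.7%, interval 77.5 to 98.2). A clone of that library with TRBV17–TRBJ1-1 and TRAV9-2–TRAJ31 had V-less TRBJ2-1 in 33 and V-less TRBJ1-2 in 13 of 64 cells. A productive TRBV1–TRBJ1-5 chain of 5xFADTg parenchyma 2 occurred, with an identical CDR3, in clones with different leading alpha chains, and V-less TRBJ1-2 was found in 16 of 26 cells with TRAV10–TRAJ31 and in 15 of 22 cells with TRAV7-5–TRAJ32.

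Clones found in 2 libraries carried the same contigs in both. There were 111 such clones, and 25 had a nonproductive alpha V-J contig in both libraries: the V and J were the same in 25 of 25 (interval 86.3 to 100), against 0.0613% of pairs of different clones. For beta V-J contigs they were the same in 14 of 15 (93.3%, interval 68.1 to 99.8), and for V-less TRBJ in 28 of 32 (87.5%, interval 71.0 to 96.5) against 15.8% between clones. Besides the 2 clones above, a clone with productive TRBV12-2+TRBV13-2–TRBJ1-2 and TRAV7D-4–TRAJ26 had nonproductive TRAV11–TRAJ38 in 10 of 34 NonTg parenchymal and 4 of 6 meningeal cells with an identical junction, printed above. A NonTg clone with productive TRBV19–TRBJ2-1 and TRAV6-5–TRAJ30 had nonproductive TRBV12-2+TRBV13-2–TRBJ2-4 in 10 of 66 parenchymal and 2 of 4 meningeal cells. A 5xFADTg clone with productive TRBV29–TRBJ1-1 and TRAV14D-1–TRAJ11 had nonproductive TRBV3–TRBJ2-7 in 10 of 38 and 2 of 9.

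Between genotypes, 5 of 13 values (38.5%) did not overlap between the parenchymal libraries. With 2 libraries against 2, a value without ties and without a true difference fails to overlap in a share of 0.333 of splits. Some of the 13 values had ties, and those that were 0 in every library could not fail to overlap. That share is therefore only a rough guide, and the count is near it. Among the 5 were 2 related beta values, both higher in 5xFADTg: cells with a nonproductive contig and contigs that were nonproductive. A nonproductive beta contig of any class was found in 43.0% and 45.4% of 5xFADTg and in 37.0% and 37.6% of NonTg parenchymal cells, so the groups did not overlap, and the difference was 6.92 percentage points. Nonproductive contigs made up 34.2% and 36.1% of 5xFADTg and 30.6% and 30.99% of NonTg beta contigs. With 2 libraries against 2, the exact permutation p was 0.333, the smallest this design can give (adjusted p = 0.867 over 13 values), so no test could pass. The meningeal libraries, 1 per genotype, had 41.9% (5xFADTg) and 42.1% (NonTg) of cells with a nonproductive beta. Alpha contigs showed less: 25.9% and 27.6% of 5xFADTg cells lay between the 24.4% and 28.8% of NonTg cells. The median UMIs of nonproductive alpha rearrangements were 54 and 47 in 5xFADTg and 63 and 88 in NonTg parenchyma. The TRBJ2 share of nonproductive beta rearrangements was 67.5% and 62.5% in 5xFADTg and 60% and 62.1% in NonTg parenchyma, and alpha contigs had both V and J in 89.1% and 90.7% against 92.4% and 92.8%.

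No V or J segment of nonproductive rearrangements differed between genotypes in parenchyma (0 of 109, 0%, edgeR adjusted p under 0.05; 4 or 3.67% at an unadjusted p under 0.05, and 0 called with DESeq2). The smallest p-values were those of TRAJ39 and TRBV26, at 0.48% against 2.59% and 0.65% against 4.03% of the 5xFADTg and NonTg rearrangements, followed by TRAV6-5 (1.31% against 4.36%) and TRAV10N (1.31% against 0.19%). Their log2 fold changes were -2.42, -2.45, -1.75 and 2.41 (edgeR adjusted p 0.669 to 0.801). The TRAV6-5 difference ran from -2.91 to -0.998 when a library was left out. In simulated data of this depth, edgeR called 2 of the 5 segments given a 4-fold change and 0 of the 4 given a 2-fold change, so differences of this order could be missed. The simulation used a dispersion of 0.02 and changed only segments with at least 40 rearrangements, more than any segment named in this paragraph had.

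Between tissues the result was similar. None of 125 segments passed (0%, edgeR; 7 or 5.6% at an unadjusted p under 0.05, and 0 called with DESeq2). The joint name TRBV12-2+TRBV13-2 was 7.78% of meningeal and 1.64% of parenchymal nonproductive rearrangements (log2 fold change 2.48), TRBV23 was 1.02% and 6.20% (-2.54), TRBJ2-4 was 19.8% and 10.0% (0.96), and TRAV5-4 was 3.17% and 0.68% (2.16), with edgeR adjusted p of 0.707 each. The TRBV23 difference was -6.35 without NonTg meninges and -0.98 without 5xFADTg meninges, and that of TRBV12-2+TRBV13-2 ran from 1.65 to 3.56 when a library was left out. None of the 13 library values passed (exact permutation, smallest possible p 0.0667), and 1 did not overlap between tissues (7.69%). Nonproductive beta rearrangements had a median of 3 UMIs in both meningeal libraries and 2 to 2.5 in the 4 parenchymal ones (exact permutation p = 0.0667, adjusted p = 0.867).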

How the data were processed

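The deposited contig lists give, for each contig of a cell, its chain, V, D, J and C genes, productive status, CDR3 and clonotype, and 2 raw count columns, reads and UMIs, which the authors deposited without normalization. Cell Ranger 6.0 and build mm10 were used, per the submitters' processing notes. The sources used here name no further steps by the authors. All listed contigs were called cells with high confidence, per the file headers. Contig length, in bases, was used as listed.

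Contigs with chain TRA or TRB and a productive value other than True were analysed. Rearrangements were counted once per library, clonotype, chain, V and J. Segments with at least 10 rearrangements over the libraries compared and, for nonproductive against productive use, at least 1 productive rearrangement and no pseudogene annotation were tested with edgeR 4.0.16 under R 4.3.3 (limma 3.58.1), taking the totals of each segment class as offsets and, for nonproductive against productive use, the library as block. DESeq2 1.42.0 was an alternative. Library values were compared with two-sided exact permutation or sign-flip tests (scipy 1.17.1) and Benjamini-Hochberg adjustment at 0.05. In simulated data the nonproductive against productive test called 10 of the 10 segments given a 4-fold change, 5 of the 10 given a 2-fold change and 2 of the 141 left unchanged. The simulated dispersion was 0.02, and the changed segments had at least 40 rearrangements. No doublet filter was run; 1 of the alternatives was restricted to cells with exactly 1 productive TRB. Named segments were those past the threshold, the most used 5 TRBV, 5 TRAV, 3 TRBJ and 3 TRAJ, those with the smallest p in each class and direction, and pseudogenes with at least 10 rearrangements; named clones were the 5 with most carriers in 1 library and the 5 in both tissues, while the clones of NonTg parenchyma 1 and 5xFADTg parenchyma 1 and those with TRBV1–TRBJ1-5 were chosen after their values were seen. Members and lists were chosen with earlier results of these data known.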

Additional observations from a re-analysis of the deposited data

Results flagged for a closer look

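Outside the alpha and beta contigs the lists hold 26 contigs of mixed chain, all nonproductive and used in no comparison here. They numbered 1 to 9 per library. A delta V segment was named in 24 of them, a TRAJ segment in 23 and the alpha constant gene in 26, with a median of 65 UMIs. They were noted because they lie outside the main measurement and no control exists for them.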

How the results depend on the processing

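The number of segments that differed between nonproductive and productive rearrangements depended most on the test: DESeq2 called 6 higher and 1 lower, and counting every contig of every cell called 7 higher and 4 lower. Leaving out each library in turn gave 8 to 10 higher and 6 to 14 lower. With every V, J and CDR3 counted once per library, an alternative chosen after seeing the data, TRAV11 was at 0.63 and TRAJ18 at 0.30. Among segments that did not pass, TRAJ31 was at -0.29 and TRBJ2-5 at -0.0993 with every contig counted, TRAV13-1 at -0.0668 with TMM factors, TRAV3D-3 at 0.0291 with DESeq2 and TRBJ2-1 at 0.11 with at least 2 UMIs. Leave-one-library-out log2 fold changes ran from -0.0310 to 0.19 for TRAV13-1, -0.19 to 0.19 for TRAV3D-3, -0.19 to 0.0612 for TRBJ2-1, -0.0420 to 0.34 for TRBJ2-5 and, between tissues, -2.25 to 0.11 for TRBJ1-1.

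Of the library values, with at least 2 UMIs the genotype difference in cells with a nonproductive alpha was -0.47 points, the tissue difference in beta contigs with V and J 0.85 and the TRBJ2 difference from productive chains 0.89. With every contig counted the tissue difference in TRAJ61 to TRAJ31 was -1.76, and with the deposited clonotypes the expansion difference for alpha was -0.459. Leaving out each library, genotype differences ran from -2.03 to 2.32 for cells with a nonproductive alpha, -0.87 to 2.47 for nonproductive alpha contigs, -3.16 to 4.32 for beta contigs with V and J and -1.56 to 1.88 for TRAJ61 to TRAJ31. Tissue differences ran from -3.27 to 4.62, -2.59 to 0.64 and -2.55 to 1.08 for the first 3, -1.5 to 55 for alpha UMIs and -5.88 to 14.3 for TRBJ2. The TRBJ2 and mean TRAJ number differences from productive chains ran from -3.84 to 0.69 and -0.0904 to 1.22. The clone sharing differences ran from 83.1 to 92.6, 95.1 to 97.0 and 41.3 to 44.6 points, with p = 0.0625 in an exact sign-flip test, the smallest that 5 libraries allow.

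The labels number the parenchymal libraries 1 and 2 in both genotypes but do not say that a number marks shared animals or a batch. With the replicate number as a block 0 segments were called between genotypes, as without it. The difference in cells with a nonproductive beta was again 6.92 points. A block in this balanced layout cannot change a difference of means, so that value does not show whether the pairing matters. Depth limits the beta V-J contigs, of which 24.0% rest on a single UMI, against 12.7% of beta contigs without V and 10.5% of alpha V-J contigs.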
